A study of Homo sapiens with 9 samples.

Results

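Heat shock protein mRNAs were followed in nuclear and cytoplasmic RNA from human embryonic kidney cells. The 10 genes were chosen by name, as all listed transcripts of HSPA1A, HSPA1B, HSPA8, HSPH1, DNAJB1, HSP90AA1, HSPB1, BAG3, HSPD1 and HSPE1. They are 10 of the 56347 genes and 79 of the 183122 transcripts that could be assigned to a gene. The cells, named HEK293 in the sample labels and 293 T in the methods, received control siRNA or siRNAs against both WTAP and KIAA1429 (Virilizer, current symbol VIRMA). The 9 libraries comprised 3 control nuclear, 3 RNAi nuclear, 2 RNAi cytoplasmic (replicates 1 and 2) and 1 control cytoplasmic library (replicate 2). No heat treatment is named in the labels or methods. By the methods, cells were transfected with siRNA and transfected again before harvest. The values thus describe transfected cells, and no library of untransfected cells was included. The series asked how loss of WTAP and KIAA1429, subunits of the complex that writes N6-methyladenosine into mRNA, changes the distribution of mRNAs between nucleus and cytoplasm. The labels do not say whether replicates came from separate cultures, and p-values then measure the spread between these libraries only.

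Heat shock proteins are molecular chaperones that hold, refold or hand over other proteins. HSP70 proteins work in cycles with J-domain proteins, which deliver clients and trigger ATP hydrolysis, and with nucleotide exchange factors such as HSP110 and BAG proteins, which release them. The transcription factor HSF1 binds inverted repeats of the pentamer NGAAN, called heat shock elements, in promoters of these genes when unfolded proteins accumulate. HSPA1A and HSPA1B encode the stress-inducible HSP70 and have no intron in their coding transcript, whereas the other members are spliced. Intronless and spliced mRNAs recruit the nuclear export machinery by different routes, which is why the intronless pair was to be set beside the spliced members.

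Promoter sequences are shown first, because the heat shock element is what these genes share by their regulation. RefSeq windows from 250 bases before to 50 bases after each annotated start were searched for the letters GAANNTTC or TTCNNGAA (each its own reverse complement) and for a longer form, GAANNTTC followed at once by NNGAA or TTCNNGAA followed by NNTTC, which contains the shorter ones. The table is of GRCh38.p14, and each of the 14 member windows matched GRCh37 at 1 place, so positions are those of GRCh37. The short form was present in 8 of the 14 windows, which belong to 7 of the 10 members, against 13.5% of all 35116 windows. The long form was present in 3 of the 14 windows, of HSPA8, HSP90AA1 and HSPD1, against 0.49% of all windows. No such letters were found in the windows of BAG3, HSPH1 and HSPE1. The list below gives 1 stretch per gene. HSPA8 had a further long form at chr11:122933052-122933084, and DNAJB1 a further short form at chr19:14628731-14628758, in another of its windows. Matched letters are in capitals, with up to 10 bases on either side, 5′ to 3′ on the strand of the gene.
HSPA1A, chr6:31783204-31783231, plus strand: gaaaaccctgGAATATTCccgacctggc
HSPA1B, chr6:31795400-31795427, plus strand: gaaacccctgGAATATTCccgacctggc
HSPA8, chr11:122932877-122932909, minus strand: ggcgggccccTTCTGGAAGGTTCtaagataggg
HSP90AA1, chr14:102553432-102553479, minus strand: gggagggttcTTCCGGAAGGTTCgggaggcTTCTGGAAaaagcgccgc
DNAJB1, chr19:14629239-14629296, minus strand: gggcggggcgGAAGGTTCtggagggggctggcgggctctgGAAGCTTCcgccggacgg
HSPB1, chr7:75931798-75931825, plus strand: cttaacgagaGAAGGTTCcagatgaggg
HSPD1, chr2:198364782-198364814, minus strand: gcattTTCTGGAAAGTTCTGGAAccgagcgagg
HSPD1 and HSPE1 lie head to head on chromosome 2. The stretch shown for HSPD1 lies between an annotated start of HSPD1 at 198364564 and that of HSPE1 at 198365103. Another annotated start of HSPD1 is at 198364998, and the stretch lies downstream of it. The stretch falls outside the HSPE1 window, which begins at 198364853. A match of letters is a description and not a measured binding site.

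The coding sequences of the HSP70 members are shown to explain how far their reads can be told apart. HSPA1A (chr6:31783320-31785723) and HSPA1B (chr6:31795515-31798031) differed at 4 of 1923 coding bases, an identity of 99.79%. Of the stretches of 31 bases in the HSPA1A transcript, 76.9% also occurred in HSPA1B. None of the 31-base stretches of the HSPA1A coding sequence occurred in that of HSPA8. The first 60 coding bases are given with differences from HSPA1A in capitals, and HSPA8 differed at 17 of them.
HSPA1A: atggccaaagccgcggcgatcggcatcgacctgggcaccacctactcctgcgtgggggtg
HSPA1B: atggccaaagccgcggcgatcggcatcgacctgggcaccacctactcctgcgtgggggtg
HSPA8: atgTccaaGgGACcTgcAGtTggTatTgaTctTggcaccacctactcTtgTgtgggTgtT

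Estimated counts summed to between 11627403 and 19036141 per library, and 3 counts corresponded to between 0.183 and 0.328 CPM (a count scaled to the TMM-normalised total of its library). Both siRNA targets fell in RNAi libraries. WTAP was at 24.1, 27.6 and 23 CPM in control nuclei and 12.2, 14.3 and 15.5 CPM after RNAi, and at 37.5 CPM in the control cytoplasm against 10.8 and 11.9 CPM. VIRMA was at 13.6, 13.2 and 19.8 CPM in control nuclei and 9.18, 5.56 and 6.97 CPM after RNAi, and at 17.4 CPM in the control cytoplasm against 4.21 and 4.05 CPM. The kidney and epithelial markers KRT8, KRT18, PAX2 and CDH2 were detected in every library, with a summed level of 179 to 226 CPM. Markers of other cell types summed to at most 0.799 CPM, with CD3E and HBB at 0 throughout. Nuclear RNAs separated the fractions. MALAT1, NEAT1, KCNQ1OT1 and MEG3 summed to 255 to 419 CPM in the 6 nuclear libraries, 33.2 CPM in the control cytoplasm and 20.5 and 19.7 CPM in the RNAi cytoplasm, with MEG3 at or near 0 everywhere. Mitochondrially encoded RNAs did not separate them. Those listed summed to 122549 to 238462 CPM in the nuclear libraries, 93174 CPM in the control cytoplasm and 112342 and 178382 CPM in the RNAi cytoplasm. The nuclear libraries thus also held RNA from outside the nucleus, and its part in the comparisons between fractions was not tested. The control cytoplasmic library stood apart for many genes, being above the other 8 libraries for 19.3% of the 16181 genes tested. No replicate exists for it here, so every cytoplasmic and nuclear/cytoplasmic comparison that includes control cells rests on that library. In bulk RNA, fewer cells with a transcript and less of it per cell cannot be told apart.

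HSPA1A and HSPA1B were listed at or near 0. HSPA1A had 3.65 estimated counts in RNAi nuclear replicate 3 and 0.00761 or less in each of the other libraries. HSPA1B had 13.9 counts in control nuclear replicate 2, 9.76 in the control cytoplasm, 4.94 in RNAi cytoplasmic replicate 2 and 0 in the other 6 libraries. Neither gene, nor their sum, reached 10 counts in 3 libraries, and neither was tested. A further 32048 listed transcripts, with between 11.69% and 16.93% of the counts of a library, could not be assigned to a gene with the annotation used, and any further copies of this pair among them were not analysed here. The low values therefore cannot be read as absence of the mRNA, and the comparison of intronless with spliced members could not be made.

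HSPA8, the constitutive HSP70 that uncoats clathrin vesicles and assists folding of new proteins, had the highest CPM of the members in most libraries. It was at 612, 874 and 688 CPM in control nuclei, 751, 939 and 915 CPM in RNAi nuclei, 903 CPM in the control cytoplasm and 691 and 837 CPM in the RNAi cytoplasm. The nuclear groups overlapped, and both cytoplasmic groups lay within the range of the nuclear libraries. HSPH1, an HSP110 that exchanges the nucleotide of HSP70, was far lower, with 5.63, 5.86 and 5.93 CPM in control nuclei and 7.51, 7.79 and 8.57 CPM in RNAi nuclei. It stood at 21.4 CPM in the control cytoplasm against 5.84 and 8.86 CPM in the RNAi cytoplasm, so the control cytoplasm was the single high library. DNAJB1, the J-domain partner of the stress-inducible HSP70, was at 67.7, 93.8 and 74.8 CPM in control nuclei and 70.3, 95.1 and 92.3 CPM in RNAi nuclei. Its cytoplasmic levels of 118 CPM in control cells and 103 and 142 CPM after RNAi were above all nuclear ones.

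BAG3, a BAG-domain exchange factor that couples HSP70 to selective autophagy, was at 111, 104 and 103 CPM in control nuclei and 133, 157 and 146 CPM in RNAi nuclei. In the cytoplasm it was at 134 CPM in control cells and 220 and 209 CPM after RNAi. RNAi libraries lay above control libraries in both fractions. HSP90AA1, the inducible cytosolic HSP90, was at 63.3, 85.2 and 64.3 CPM in control nuclei and 68, 66.1 and 69.8 CPM in RNAi nuclei, which overlapped. Its control cytoplasm, at 220 CPM, was above every other library, and the RNAi cytoplasm at 53.8 and 68.2 CPM was at the nuclear level.

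HSPB1, the small heat shock protein known as HSP27 that binds unfolded proteins without ATP, was at 468, 571 and 535 CPM in control nuclei and 369, 357 and 373 CPM in RNAi nuclei. The nuclear groups did not overlap. The cytoplasm held 810 CPM in control cells and 866 and 876 CPM after RNAi. HSPD1 and HSPE1 encode the mitochondrial chaperonin HSP60 and its lid HSP10. HSPD1 was at 152, 137 and 137 CPM in control nuclei, 129, 127 and 121 CPM in RNAi nuclei, 303 CPM in the control cytoplasm and 226 and 197 CPM in the RNAi cytoplasm. HSPE1 was at 2.68, 5.73 and 4.34 CPM in control nuclei, 3.96, 4.08 and 4.14 CPM in RNAi nuclei, 8.76 CPM in the control cytoplasm and 4.98 and 6.56 CPM in the RNAi cytoplasm. Both were highest in the control cytoplasm, as were HSPH1 and HSP90AA1, which makes 4 of the 8 tested members against 19.3% of tested genes.

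**Figure D1:**
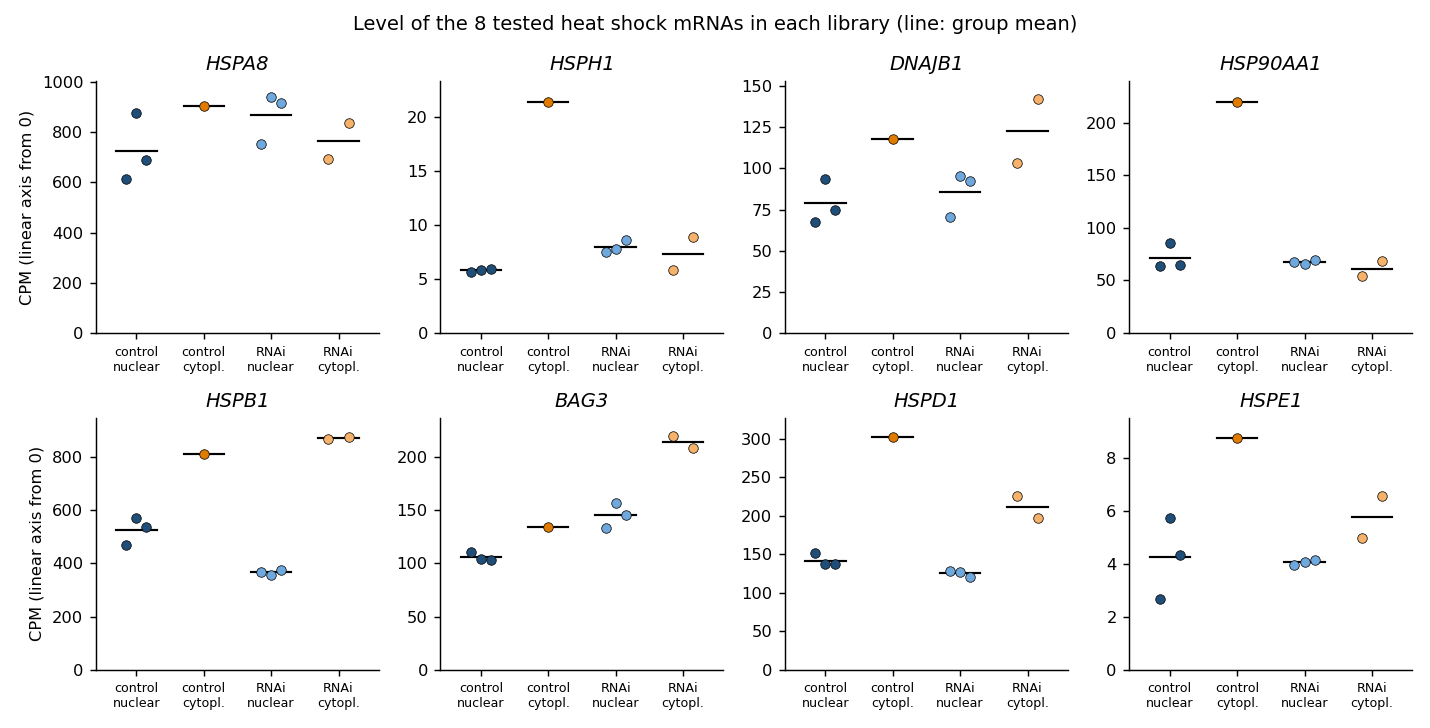
Level of the 8 tested members in CPM (vertical axes from 0), with a point for each library, a line for the group mean and the groups on the horizontal axis. For HSP90AA1 and HSPH1 the single control cytoplasmic library, at 220 and 21.4 CPM, lies above all others, and for HSPB1 the RNAi nuclei lie below the control nuclei.

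Per transcript length the order differed from that in CPM. On the TPM scale HSPB1 led in control nuclei with 710 ± 138 TPM (SD, n = 3), followed by HSPA8 with 470 ± 160 TPM, and the ranges of this pair overlapped. HSPD1 came next with 158 ± 10.5 TPM, then BAG3 with 46.7 ± 3.52 TPM, HSP90AA1 with 40.8 ± 2.76 TPM and DNAJB1 with 39.8 ± 12 TPM. The range of DNAJB1 overlapped those of both BAG3 and HSP90AA1. HSPE1 with 7.91 ± 3.98 TPM and HSPH1 with 2.14 ± 0.791 TPM were lowest. In RNAi nuclei HSPA8, at 656 ± 110 TPM, was above HSPB1, at 488 ± 29.1 TPM, and their ranges did not overlap. The summed TPM of the 8 tested members was 1202 to 1811 in control nuclei, 1297 to 1584 in RNAi nuclei, 2467 in the control cytoplasm and 1820 and 1595 in the RNAi cytoplasm. The nuclear ranges of this sum overlapped.

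In the nucleus, where both groups had 3 libraries, RNAi left most members near the control level, lowered HSPB1 and came with a smaller rise of BAG3. HSPB1 fell by 0.52 on the log2 scale (SE 0.09, FDR 0.0259, 1.43-fold lower), and all RNAi nuclei lay below all control nuclei. It was the single member called of 8 tested, where a call needs a false discovery rate (FDR) under 0.1 and a log2 fold change beyond 0.5 in size in edgeR's quasi-likelihood test. Over all 16181 genes tested, 4.89% were called, 2.42% in the direction of HSPB1 and 2.47% in the other. BAG3 rose by 0.46 (SE 0.09, FDR 0.0311), which passed the FDR, as 8.08% of tested genes did, but not the size limit. HSPH1 had a value of 0.45 (SE 0.17, FDR 0.164) without overlap of the groups, and did not pass. Groups did not overlap for 4 of the 8 members, namely HSPH1 and BAG3 (RNAi higher) and HSPB1 and HSPD1 (RNAi lower), against 28.1% of tested genes, 14.3% higher and 13.8% lower. The other values were 0.26 for HSPA8 (SE 0.14), 0.12 for DNAJB1 (SE 0.17), -0.06 for HSP90AA1 (SE 0.13), -0.17 for HSPD1 (SE 0.09) and -0.06 for HSPE1 (SE 0.26). Without control nuclear replicate 2 the values of HSP90AA1 and HSPE1 were 0.09 and 0.23, and HSP90AA1 was also positive on the TPM scale. The median over the 8 members was 0.03, and that over all genes tested was -0.001. The HSPB1 call was lost without control nuclear replicate 2 or 3 or RNAi nuclear replicate 2 or 3, in each case with a value between -0.53 and -0.45, and with library size in place of TMM.

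In the cytoplasm, HSP90AA1 and HSPH1 were much lower after RNAi and HSPD1 lower, whereas BAG3 was higher. HSP90AA1 fell by 1.85 (SE 0.19, FDR 0.000643, 3.61-fold lower) and HSPH1 fell by 1.55 (SE 0.23, FDR 0.00246, 2.94-fold lower). Of all tested genes, 3.64% had a lower value than HSP90AA1 and 5.68% a lower value than HSPH1. HSPD1 fell by 0.52 (SE 0.13, FDR 0.0205), and BAG3 rose by 0.68 (SE 0.14, FDR 0.00779, 1.6-fold higher). Thus 4 of the 8 tested members were called, 3 lower and 1 higher, against 24.6% of all genes tested (14.2% lower and 10.4% higher). HSPE1 (-0.61, SE 0.35, FDR 0.252), HSPA8 (-0.24, SE 0.21, FDR 0.466), HSPB1 (0.11, SE 0.14, FDR 0.629) and DNAJB1 (0.05, SE 0.25, FDR 0.91) did not pass, and the last pair turned negative with library size in place of TMM. The comparison sets 2 RNAi libraries against 1 control library, whose own spread could not be measured and was taken from the other groups. The summed nuclear RNA markers were also higher in that control library than in the RNAi cytoplasm (33.2 against 20.5 and 19.7 CPM), and their part in the result was not tested. The HSPD1 call was lost without RNAi cytoplasmic replicate 2, with an offset for transcript length (-0.48) and in limma on log2(TPM + 1). The BAG3 call was lost with library size in place of TMM. It was also lost in limma on log2(TPM + 1) (0.38) or log2(TPM + 0.1) (0.39).

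**Figure D2:**
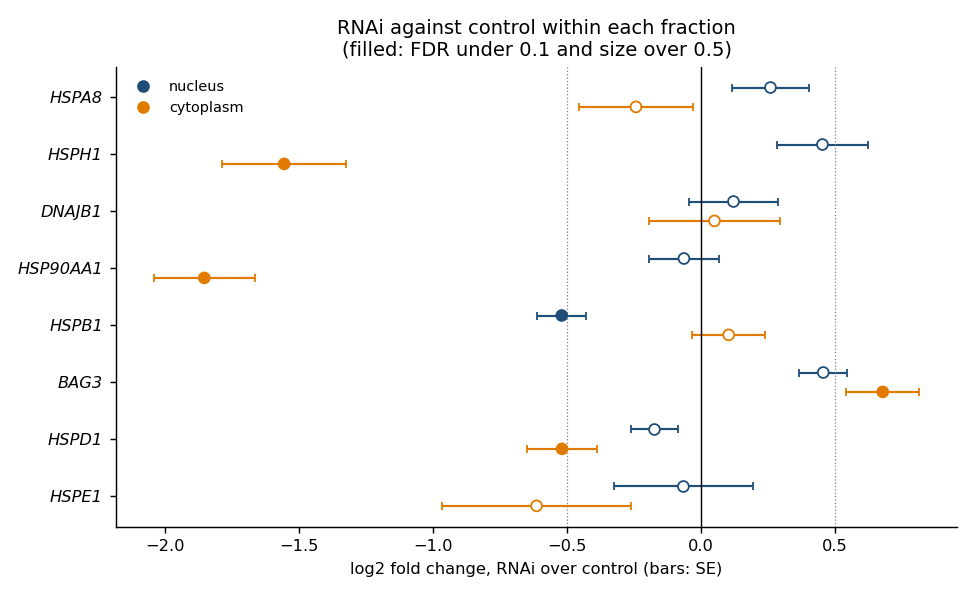
Log2 fold change of RNAi over control for each member (horizontal axis, bars are SE), in the nucleus (blue, 3 against 3 libraries) and the cytoplasm (orange, 2 against 1), with filled points for calls and dotted lines at 0.5 in size. HSP90AA1 and HSPH1 were changed by -1.85 and -1.55 in the cytoplasm with nuclear values of -0.06 and 0.45, and BAG3 was positive in both fractions.

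Between the fractions of control cells, every tested member had a lower level in the nucleus than in the cytoplasm. The difference was called for 6 of 8, against 50.8% of all tested genes in either direction, 28% with the higher and 22.7% with the lower level in the nucleus. HSPH1 was 3.68-fold lower in the nucleus (log2 -1.88, SE 0.21, FDR 0.000104) and HSP90AA1 3.1-fold lower (log2 -1.63, SE 0.17, FDR 7.5e-05). Lower values than these were seen in 0.55% and 1.16% of tested genes. The mitochondrial chaperonin genes came next, with HSPD1 at -1.09 (SE 0.12) and HSPE1 at -1.04 (SE 0.33). HSPB1 (-0.63, SE 0.12) and DNAJB1 (-0.58, SE 0.22, FDR 0.0523) were also called, but DNAJB1 lost its call without control nuclear replicate 3, HSPE1 with an offset for transcript length, and all 3 of HSPB1, DNAJB1 and HSPE1 in limma on log2(TPM + 1). BAG3 (-0.34, SE 0.12) and HSPA8 (-0.32, SE 0.2) were not called, but HSPA8 was called at -0.97 with an offset for transcript length and at -0.9 in limma on log2(TPM + 1). The median over the members was -0.83, against 0.04 over all genes tested.

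In RNAi cells, 4 of 8 members were called, all lower in the nucleus, against 57.8% of tested genes in either direction, 32.9% higher and 24.9% lower in the nucleus. HSPB1 was 2.38-fold lower in the nucleus (log2 -1.25, SE 0.1, FDR 6.89e-06), and only 2.36% of tested genes had a lower value. HSPD1 (-0.75, SE 0.1), BAG3 (-0.56, SE 0.1) and DNAJB1 (-0.51, SE 0.18, FDR 0.0315) were the others. HSP90AA1 and HSPH1, at 0.16 (SE 0.15) and 0.13 (SE 0.19), were not called between the fractions and turned negative without RNAi cytoplasmic replicate 1 (-0.01 and -0.15), and neither was HSPA8 (0.19, SE 0.16) or HSPE1 (-0.5, SE 0.29, FDR 0.157) called. Nuclear and cytoplasmic libraries did not overlap for 5 of the 8, each lower in the nucleus in CPM, against 76.2% of tested genes in either direction, 39.9% higher and 36.4% lower in the nucleus. HSPE1, which is among the 5, had the other direction in TPM, with 7.94, 8.18 and 7.5 TPM in RNAi nuclei against 5.68 and 6.25 TPM in the RNAi cytoplasm, and a value of 0.35 in limma on log2(TPM + 1). The DNAJB1 call was lost without RNAi nuclear replicate 1, RNAi cytoplasmic replicate 2, or control nuclear replicate 1 or 3, and with library size in place of TMM the HSPB1 call alone was left. The comparison shares no library with that in control cells, but both come from the same fit of all 9 libraries, with a shared estimate of the spread.

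**Figure D3:**
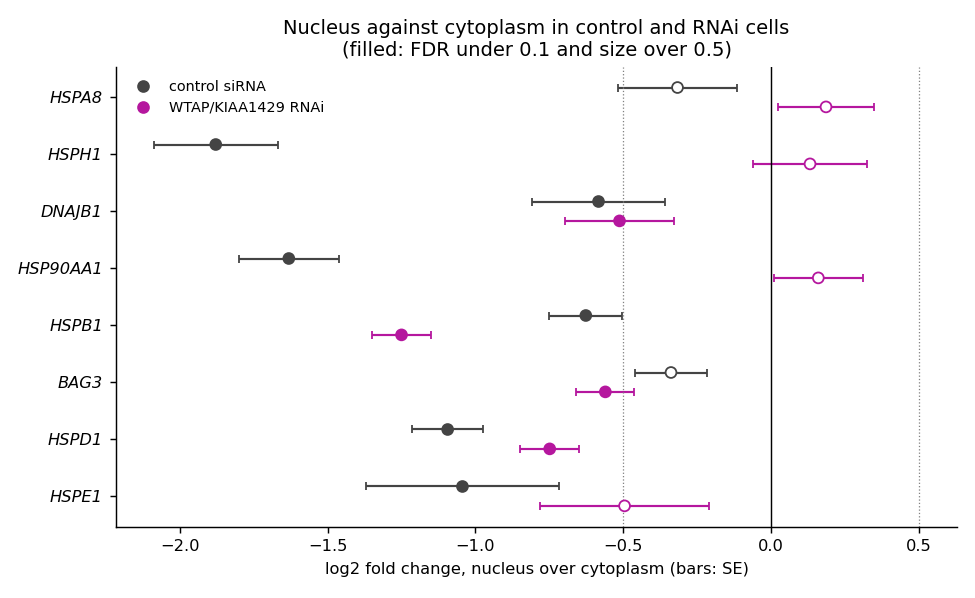
Log2 fold change of nucleus over cytoplasm for each member (horizontal axis, bars are SE) in control cells (grey, 3 nuclear against 1 cytoplasmic library) and RNAi cells (magenta, 3 against 2), with filled points for calls. HSP90AA1 and HSPH1 lie at -1.63 and -1.88 in control cells and near 0 in RNAi cells, and HSPB1 moves from -0.63 to -1.25.

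The change of the nuclear/cytoplasmic ratio on RNAi is the contrast the study used to find mRNAs held in the nucleus. The ratio rose 4.03-fold for HSPH1 (log2 2.01, SE 0.29, FDR 0.0038) and 3.46-fold for HSP90AA1 (log2 1.79, SE 0.23, FDR 0.00249), and fell by 0.62 on the log2 scale for HSPB1 (SE 0.17, FDR 0.0381). These 3 of 8 members were called, 2 higher and 1 lower, against 18.2% of all genes tested (10.4% higher and 7.87% lower, so that 56.9% of calls were higher). With library size in place of TMM 93.2% of all calls were higher, and the direction of each of the 3 members held. HSP90AA1 and HSPH1 were called under every alternative, in each of which the single control cytoplasmic library stayed in the fit. The ratio is built from the same libraries as the comparisons above. The value of HSP90AA1 was made up of -0.06 in the nucleus and -1.85 in the cytoplasm, and that of HSPB1 of -0.52 and 0.11. HSPA8 (0.5, SE 0.26, FDR 0.234), HSPE1 (0.55, SE 0.44, FDR 0.453), HSPD1 (0.34, SE 0.16, FDR 0.187), DNAJB1 (0.07, SE 0.3, FDR 0.906) and BAG3 (-0.22, SE 0.16, FDR 0.4, positive with library size in place of TMM) did not pass. HSPA8 was called at 0.66 without control nuclear replicate 2, with an offset for transcript length, and at 1.4 in limma on log2(TPM + 1). HSPB1 lost its call without control nuclear replicate 3 or RNAi cytoplasmic replicate 2 and with library size in place of TMM. It also lost its call in limma on log2(TPM + 1) or log2(TPM + 0.1), at -0.36 in either fit.

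Estimated counts per transcript were then compared within each gene. HSP90AA1 was read mainly from its transcript with 11 exons, ENST00000216281, with 60.1% to 89.1% of its counts, whereas ENST00000334701, which starts upstream and has 12 exons, held 4.72% to 17.2%. HSPB1 was read mainly from ENST00000248553 with 3 exons, DNAJB1 from ENST00000254322 with 3 exons (95.6% to 99.5%) and BAG3 from ENST00000369085 with 4 exons (93.5% to 95.8%). HSPA8 was divided between ENST00000227378 (48.6% to 61.6%) and ENST00000533540 (25.5% to 34.6%), both with 8 exons. The protein-coding transcripts with most counts of HSPB1, DNAJB1, HSPE1 and BAG3 had 3 or 4 exons and those of HSPA8, HSP90AA1, HSPD1 and HSPH1 had 8, 11, 12 and 18, against a median of 8 over 13351 tested protein-coding genes. The letters GGACT, the commonest form of the N6-methyladenosine motif, were counted in the same transcripts. They occurred 0.31 times per kb in HSP90AA1 and 0.381 times in HSPH1 and 0.445 times in HSPD1, below the lower quartile of 0.56 over those genes, and 1.78 times in DNAJB1, above the upper quartile of 1.42, with BAG3 between them at 0.781. HSPA8, HSPB1 and HSPE1 had none. These letters were counted in a newer annotation than the files used, and methylation was not measured here.

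The share of counts on transcripts without a coding biotype (retained introns, decay targets and undefined coding regions) differed between fractions for some members. In HSPE1 it was 21.8%, 24.9% and 14.3% in control nuclei and 52%, 26.6% and 25.9% in RNAi nuclei, all on retained introns. It was 0.695% in the control cytoplasm (95% exact interval 0.0176% to 3.81%). In the RNAi cytoplasm it was 0 of 64 and 0 of 60 counts, which allows shares of up to 4.69% and 5%, taking 3 counts of the total as the limit for a count of 0. No cytoplasmic library reached the lowest nuclear share, but the gene had only 39 to 144 counts in a library. In HSP90AA1 retained introns held 1.27%, 2.08% and 1.06% of counts in control nuclei and 1.54%, 1.71% and 1.95% in RNAi nuclei. They held 0 of 3613 counts in the control cytoplasm, which by the same limit of 3 counts allows up to 0.083%, and none in the RNAi cytoplasm, which allows up to 0.434% and 0.481%. In HSPA8 they held 3.88% to 5.8% in the 6 nuclear libraries, 2.93% in the control cytoplasm (2.67% to 3.21%) and 0.943% and 0.88% in the RNAi cytoplasm. HSPB1 went the other way, with 12.9% to 18.5% in the nucleus, 17.6% in the control cytoplasm (17% to 18.3%) and 19.8% and 20.6% in the RNAi cytoplasm. These counts lay on ENST00000447574, which keeps 1 of the introns. In HSPD1 the share of retained introns was 35.9% to 56.6% in the nucleus and 46.4% to 51.9% in the cytoplasm, which overlapped. Most of it was on ENST00000476746, a transcript of 853 bases in the files whose record is longer in the annotation that gave its biotype. Intervals and limits cover counting error alone, and salmon's split of reads between overlapping transcripts adds to it.

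Fraction labels were permuted within each siRNA group in an exact two-sided test with 40 arrangements, which cannot give a p under 0.025. Over the 7 members with such transcripts, HSPE1 (27.4 percentage points higher in the nucleus), HSP90AA1 (1.92 points) and HSPB1 (a difference of -3.64 points) reached this smallest p of the exact permutation test, p = 0.025. After Benjamini-Hochberg adjustment over the 7 tests they stood at 0.0583, and none passed 0.05. With retained introns alone, an alternative chosen after seeing the data, HSPA8 was 3.57 points higher in the nucleus, and it, HSPE1, HSP90AA1 and HSPB1 passed at an adjusted exact p = 0.0375. With all such transcripts, HSPA8 had p = 0.475 in this exact test. Its transcripts without a defined coding region were highest in the control cytoplasm, at 14.6% against 0.641% to 8.4% in the other libraries. Within the nucleus the HSPB1 share was 16.8% to 18.5% in RNAi libraries and 12.9% to 14.6% in control libraries, a difference that was not tested.

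**Figure D4:**
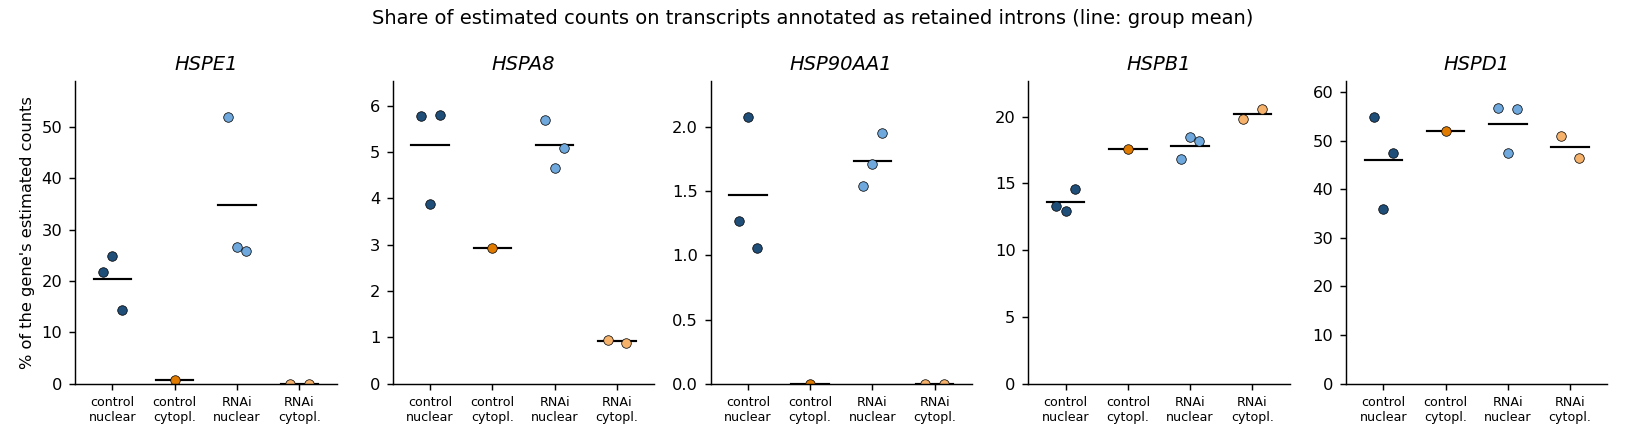
Share of each gene's estimated counts on transcripts annotated as retained introns (vertical axes in percent, from 0), with a point for each library and a line for the group mean. The share was higher in all nuclear than in all cytoplasmic libraries for HSPE1, HSPA8 and HSP90AA1, with 14.3% to 52% against at most 0.695% for HSPE1, and HSPD1 shows no such separation.

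Reads of pseudogenes added little. The annotation lists 70 pseudogenes named after the members, none with more than 10 counts in a library, so the split of reads with these copies was small as salmon made it.

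The other genes of the chaperone system were read from 7 lists with 66 tested genes. Their nuclear/cytoplasmic ratio was called higher for 11 and lower for 1, against the 10.4% and 7.87% of all tested genes given above, with a median of 0.11. In the nucleus 3 were higher and 0 lower by edgeR's quasi-likelihood test, against 2.47% and 2.42% of all tested genes. At an unadjusted p under 0.05, 4 were higher and 15 lower. No share of all tested genes was counted at that threshold, here or for the lists below. Such counts therefore cannot be read as a shift of the listed genes. DESeq2 called 1 higher and 0 lower, against 325 and 292 of all 16181 genes tested. In the cytoplasm 4 were higher and 21 lower, against the 10.4% and 14.2% given above. Among J-domain proteins 5 of 20 rose in ratio. DNAJC2, which binds the ribosome, rose by 2.73 (SE 0.32, FDR 0.00162), from 4.4, 4.77 and 4.42 CPM in control nuclei to 7.02, 6.3 and 7.05 CPM, and from 5.11 CPM in the control cytoplasm to 1.01 and 1.31 CPM. DNAJB14, in the membrane of the endoplasmic reticulum, rose by 1.94 (SE 0.32), DNAJC13, an endosomal protein, by 1.91 (SE 0.39) and DNAJB4, a relative of DNAJB1, by 1.75 (SE 0.56). In the nucleus DNAJB14 rose by 0.63 (SE 0.19, FDR 0.0908) and DNAJC2 by 0.58 (SE 0.16, FDR 0.0749).

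Among co-chaperones 2 of 17 rose in ratio, a share near the 10.4% of all tested genes. CHORDC1, a partner of HSP90, rose by 2.64 (SE 0.34, FDR 0.00249), with 6.46, 5.18 and 7.34 CPM in control nuclei, 7.51, 6.21 and 6.03 CPM in RNAi nuclei, 12.9 CPM in the control cytoplasm and 1.87 and 2.51 CPM in the RNAi cytoplasm. BAG4, another BAG-domain protein, rose by 0.8 (SE 0.21). HSPA4L and HSPA4, HSP110 relatives of HSPH1, also rose, by 1.8 (SE 0.33, FDR 0.00992) and 0.72 (SE 0.16, FDR 0.0174). They were the 2 called of 10 other HSP70 and HSP110 genes. HYOU1, another gene of that list, had -0.08 (SE 0.47, FDR 0.94). In the control cytoplasm HSPA4 was at 194 CPM, against 49.4 to 93.5 CPM elsewhere. HSPA5, the HSP70 of the endoplasmic reticulum, had -0.36 (SE 0.25, FDR 0.379) and HSPA9, that of mitochondria, 0.16 (SE 0.16, FDR 0.545).

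Of the 3 other HSP90 genes, HSP90B1 of the endoplasmic reticulum rose by 1.00 (SE 0.17, FDR 0.00711), which was 0.56 and not called with an offset for transcript length and not called in limma, and the mitochondrial TRAP1 fell by 0.62 (SE 0.17, FDR 0.0428). HSP90AB1, the constitutive cytosolic partner of HSP90AA1, had -0.2 (SE 0.27, FDR 0.678). It was at 549, 882 and 668 CPM in control nuclei, 537, 577 and 588 CPM in RNAi nuclei, 700 CPM in the control cytoplasm and 615 and 687 CPM in the RNAi cytoplasm, so that the RNAi cytoplasm was within the range of the control libraries. Among 4 tested small heat shock proteins 0 were called in ratio by edgeR (1 higher and 1 lower at an unadjusted p under 0.05) and 0 by DESeq2. HSPB8, a partner of BAG3, rose in the nucleus by 0.64 (SE 0.16, FDR 0.0558), from 4.6, 3.75 and 4.42 to 6.82, 6.02 and 7.05 CPM. It also rose in the cytoplasm by 1.01 (SE 0.23, FDR 0.0147), as BAG3 did. The HSF list had 0 of 4 called in ratio by edgeR, 0 by DESeq2 and 0 at an unadjusted p under 0.05. HSF1 itself had 0.23 in the nucleus (SE 0.13, FDR 0.36) and rose by 0.59 in the cytoplasm (SE 0.2, FDR 0.0621), from 139 CPM to 184 and 236 CPM, a call that was lost without RNAi cytoplasmic replicate 2 or control nuclear replicate 3. The HSF1 call was also lost with library size in place of TMM (0.32) and in limma on log2(TPM + 1) (0.31). In the CCT chaperonin, which folds actin and tubulin, CCT6A rose in ratio by 0.56 (SE 0.17, FDR 0.0533), 1 of 8 subunits against 10.4% of all tested genes, and 3 of 8 fell in the cytoplasm against 14.2%. The ratio calls of CCT6A, DNAJB4 and TRAP1 were each lost without RNAi cytoplasmic replicate 2 (0.57, 1.41 and -0.47), those of CCT6A and DNAJB4 also without RNAi nuclear replicate 1 or control nuclear replicate 3, that of CCT6A without RNAi nuclear replicate 3 and that of DNAJB4 without RNAi nuclear replicate 2. TRAP1 also lost its ratio call with library size in place of TMM (-0.34) and in limma. CCT6A and DNAJB4 lost theirs with an offset for transcript length and in limma, and DNAJB4 also with DESeq2. The ratio call of DNAJB14 was lost with that offset (1.41), and that of HSPA4 in limma. The nuclear calls of DNAJB14, DNAJC2 and HSPB8 were each lost when RNAi nuclear replicate 1, 2 or 3 or control nuclear replicate 3 was left out, that of DNAJB14 also without control nuclear replicate 2 or RNAi cytoplasmic replicate 2, and that of DNAJC2 without control nuclear replicate 1. These calls were also lost with an offset for transcript length and in limma. Nuclear calls over all genes fell too without RNAi nuclear replicate 1, to 133 higher and 135 lower. They fell to 60 higher and 53 lower without RNAi nuclear replicate 2, and to 31 and 20 without RNAi nuclear replicate 3. Without control nuclear replicate 3 they were 47 and 43. The loss of the HSPB1 call without any of these libraries was thus shared with many other genes. Without control nuclear replicate 2, where HSPB1 also lost its call, nuclear calls over all genes did not fall.

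**Figure D5:**
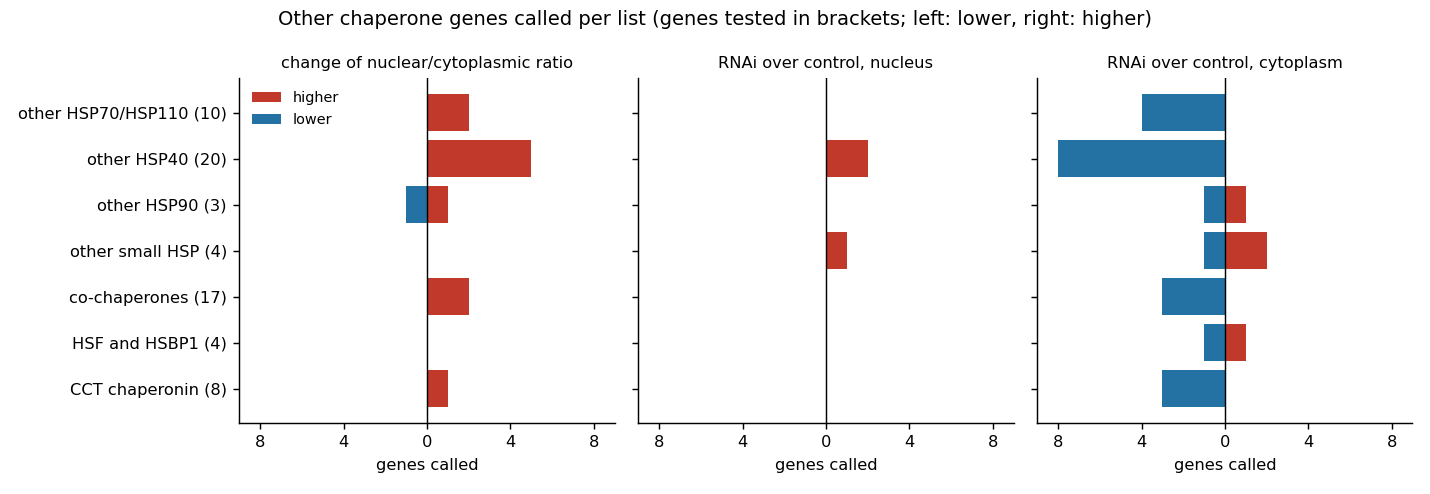
Number of genes called per list of other chaperone genes (horizontal axes, higher to the right, lower to the left, genes tested in brackets) for the change of the nuclear/cytoplasmic ratio and for RNAi over control in the nucleus and the cytoplasm. Of the 66 tested genes, 21 were lower in the cytoplasm and 3 higher in the nucleus.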

How the data were processed

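Per the labels and methods, the authors trimmed reads with cutadapt and ran salmon on the hg19 transcripts of Ensembl. They deposited expected counts and TPM per transcript, with effective lengths. The salmon version is not given in the sources used here. Of 215170 transcripts, 183122 were matched to GENCODE 44 genes on GRCh37 (the build of hg19), with 83.07% to 88.31% of counts. Gene totals of estimated counts were rounded to whole numbers. edgeR 4.0.16 (R 4.3.3) tested 16181 genes with at least 10 counts in at least 3 libraries (TMM, 4 groups, quasi-likelihood test, Benjamini-Hochberg FDR under 0.1, log2 fold change beyond 0.5). The SE is the fold change divided by the square root of F. Libraries held 11627403 to 19036141 counts on all listed transcripts. CPM uses the 9864582 to 15796142 counts on tested genes times the TMM factor, and the detection limit is 3 counts. In simulated counts for the ratio contrast (15701 genes, 200 changed by 2 on the log2 scale), 97% were found and 8.5% of calls were false. The change was placed in the RNAi nuclear libraries alone, with a dispersion of 0.02 and no deviating library. These rates therefore do not cover error that comes from the single control cytoplasmic library. Alternatives used DESeq2 1.42.0, limma 3.58.1 and settings given at the end. Members and lists were chosen with earlier results of these data known. Named list genes are those with the largest called changes in ratio or nucleus, up to 4 per list and direction, plus HSF1, HSP90AB1, HSPA5 and HSPA9.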

Additional observations from a re-analysis of the deposited data

Results flagged for a closer look

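The change on RNAi differed between nucleus and cytoplasm for the genes below, by the interaction term of edgeR's quasi-likelihood test (FDR under 0.1, log2 size beyond 0.5), as it did for 18.2% of all genes tested. Among the members these were HSPH1 (2.01), HSP90AA1 (1.79) and HSPB1 (-0.62). Among the other chaperone genes they were DNAJC2 (2.73), CHORDC1 (2.64), DNAJB14 (1.94), DNAJC13 (1.91), HSPA4L (1.8), DNAJB4 (1.75), HSP90B1 (1), BAG4 (0.8), HSPA4 (0.72), CCT6A (0.56) and TRAP1 (-0.62). The siRNA target WTAP also differed (0.89). Each value includes the single control cytoplasmic library, and with groups of at most 3 libraries no single library was tested as an outlier.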

How the results depend on the processing

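Over 81 results and 1328 alternatives, 1169 values kept their side of the threshold or moved by less than their error (12 of them, none called, turned sign), 105 lost a call, 15 gained one, 38 moved and 1 reversed. The calls of HSP90AA1 and HSPH1 in the ratio, the cytoplasm and between the fractions of control cells held in all of them, but the single control cytoplasmic library could not be left out. The number of members called in the nucleus (1) was 0 with at least 10 counts in every library, with library size in place of TMM and in limma on log2(TPM + 1) or log2(TPM + 0.1), and 2 with no filter, where HSPA1B was called on 13.9 counts in control nuclear replicate 2. Leaving out single replicates gave 0 to 2. In the cytoplasm (4) it was 2 in limma on log2(TPM + 1), and 3 to 5 without single replicates. Between the fractions of RNAi cells (4) it was 2 with at least 10 counts in every library, 1 with library size, 1 in either limma fit and 6 with no filter, and 3 to 4 without single replicates. For the ratio (3) leaving out single replicates gave 2 to 4, and between the fractions of control cells (6) 5 to 6. With retained introns only, chosen after seeing the data, 4 members passed the share test in place of 0, and HSPA8 reversed from -1.84 to 3.57 percentage points. Leaving out mitochondrially encoded genes was also chosen after seeing the data and cost 1 call among members, DNAJB1 between the fractions of RNAi cells (-0.49).

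Scaling moved the whole distribution. With library size the median over all genes was 0.233 for the ratio, -0.236 in the cytoplasm and 0.305 between the fractions of RNAi cells, and higher calls made up 93.2%, 11.9% and 75.6% of calls, against 56.9%, 42.1% and 56.9% with TMM. In limma on log2(TPM + 1) they made up 97.2%, 6.62% and 83.3%. Same-numbered nuclear libraries correlated at 0.042 to 0.185 in their deviations from the group means, and 5 of 6 correlated best with their own number, a hint of pairing in the data. Same-numbered nuclear and cytoplasmic libraries correlated at 0.037 to 0.197. Since not every pair was over 0.1 and the labels name no shared culture or day, the numbers were not taken to pair the libraries. With a replicate block, members called were 3 for the ratio, 1 in the nucleus, 4 in the cytoplasm, 5 between the fractions of control cells (DNAJB1 at -0.38 was lost) and 4 in RNAi cells, and HSF1 was called in ratio (-0.5). Adding further copies of HSPA1A and HSPA1B was not run, and their sum did not pass the filter. HSPE1 had 39 to 144 counts in a library, which limits its precision.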
